A study of Homo sapiens with 6 samples.

Results

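The mitochondrial ribosomal protein genes MRPL and MRPS were examined for occupancy by RNA pol II in hepatic cells with and without SHP-1. The genes were chosen by symbol (MRPL or MRPS, a number and at most a letter A to C), and not by any measured value. The human GENCODE 44 annotation holds 78 such genes, 49 MRPL and 29 MRPS, and 74 of them had at least 1 region assigned to them, of 16428 gene symbols with a region in any list. MRPL12, MRPL23, MRPL43 and MRPS34 had none under their own symbol.

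Chromatin immunoprecipitation followed by sequencing (ChIP-seq) was performed in untreated HepG2 cells, an established line from a human liver tumor. SHP-1-WT cells were the CRISPR control, a clonal line that had received a nontargeting guide, and SHP-1-KO cells were a clonal CRISPR knockout of PTPN6, the gene of the tyrosine phosphatase SHP-1, made with guides to exons of its phosphatase domain. Chromatin was precipitated with an antibody to RPB1 (anti-Rpb1, ab817), the largest subunit of RNA pol II, or to RPB1 phosphorylated on serine 2 of its C-terminal repeats (pSer2, ab5095), a form found on elongating polymerase. There was 1 library per antibody and cell line, so that no difference between WT and KO below has a replicate check or a p-value, and differences between the clones and effects of SHP-1 cannot be told apart.

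The values are fold enrichments over input DNA of the regions that the authors called in each library. The lists held 46045 regions in WT RPB1, 41605 in KO RPB1, 102674 in WT pSer2 and 81012 in KO pSer2, without read counts, and sequencing depth is therefore unknown. PTPN6 itself had a promoter fold enrichment of 24.0 in WT and 17.2 in KO for RPB1, and of 4.03 and 5.24 for pSer2. Polymerase on the gene does not measure the protein, and these values do not check the labels. Of 10 hepatic marker genes all 10 had a region at their start in each of the 4 lists, and 0 of 5 markers of other cell types (PTPRC, CD3E, MYOD1, GFAP, SYN1) had one.

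The mitochondrial ribosome makes the few proteins that mitochondrial DNA encodes, all of them subunits of the respiratory chain complexes and ATP synthase. Its ribosomal RNAs come from mitochondrial DNA, but its proteins are encoded in the nucleus, transcribed by RNA pol II and imported. Most MRPL proteins sit in the large subunit, which forms peptide bonds, and most MRPS proteins in the small subunit, which reads the mRNA. Some proteins descend from those of bacteria and others were added in mitochondria, and the genes were grouped accordingly by number, up to MRPL36 and MRPS21 as bacterial. Symbols do not always tell the subunit, since MRPS18A and MRPS30 are found in the large one.

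The regions upstream of the start are shown first, because RNA pol II was called at nearly all of these starts. Some short motifs were also found near the start more often than in other RPB1-bound genes. Reference windows from 250 bases before to 50 after the start, from RefSeq (GRCh38.p14), were matched for 69 of the 78 genes. MRPL2, MRPL10, MRPL13, MRPL15, MRPL21, MRPL23, MRPL35, MRPS28 and MRPS36 had none. The 150 bases before the start (positions -150 to -1) are printed for genes that recur in the results, MRPL20 with the highest RPB1 fold enrichment, MRPS18A and MRPS22 with the lowest KO to WT ratios, MRPS26 and MRPL34 with the highest, and MRPL17, whose covered pSer2 gene body was among those that differed most. Capitals mark matches of the ETS motif CCGGAAG, the core bound by GABPA (also called NRF2), or of the NRF1 motif GCGCANGCG, each on either strand.
MRPL20 (chr1:1407294-1407443, minus strand): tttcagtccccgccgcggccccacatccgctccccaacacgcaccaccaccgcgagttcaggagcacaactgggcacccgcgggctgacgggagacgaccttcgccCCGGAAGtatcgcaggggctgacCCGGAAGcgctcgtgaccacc
MRPS18A (chr6:43687792-43687941, minus strand): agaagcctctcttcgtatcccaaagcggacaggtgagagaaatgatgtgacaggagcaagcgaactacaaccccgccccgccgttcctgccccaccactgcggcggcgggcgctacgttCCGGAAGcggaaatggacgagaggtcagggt
MRPS22 (chr3:139343870-139344019, plus strand): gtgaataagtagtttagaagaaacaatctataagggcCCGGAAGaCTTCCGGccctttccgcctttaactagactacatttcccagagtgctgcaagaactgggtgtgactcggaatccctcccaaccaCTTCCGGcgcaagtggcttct
MRPS26 (chr20:3045902-3046051, plus strand): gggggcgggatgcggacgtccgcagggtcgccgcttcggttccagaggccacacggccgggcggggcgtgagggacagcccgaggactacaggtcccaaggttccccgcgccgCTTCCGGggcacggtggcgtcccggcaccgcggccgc
MRPL34 (chr19:17305722-17305871, plus strand): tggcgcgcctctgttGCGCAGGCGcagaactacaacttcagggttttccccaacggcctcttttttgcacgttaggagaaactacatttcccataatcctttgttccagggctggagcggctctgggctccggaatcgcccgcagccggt
MRPL17 (chr11:6683341-6683490, minus strand): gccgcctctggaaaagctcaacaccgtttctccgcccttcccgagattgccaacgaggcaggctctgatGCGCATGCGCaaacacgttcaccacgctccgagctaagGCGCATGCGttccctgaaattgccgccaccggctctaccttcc

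MRPL20 had 2 ETS matches in these bases, MRPS18A and MRPS26 1 each and MRPS22 3, while MRPL34 and MRPL17 had matches of NRF1 only. Adjacent matches of NRF1 in MRPL17 share bases. GABPA and NRF1 are transcription factors known for their sites in nuclear genes of the respiratory chain. Over the whole windows, CCGGAAG was found in 30 of 69 genes, 43.5% (95% Wilson interval 32.4 to 55.2). It was found in 14.8% of 15344 protein-coding genes with a window, and in 21.4% of the 9581 of these with an RPB1 region at the start in WT. The NRF1 motif was found in 14 genes, 20.3% (12.5 to 31.2), against 11.5% and 16.5%. Either motif was present in 40 genes, 58.0%, against 24.0% and 34.3%.

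AANATGGCG, the motif of YY1, which binds near the start of many housekeeping genes, was found in 18 of 69, 26.1% (17.2 to 37.5), against 5.24% and 7.89%. Its matches lay mostly past the start, 16 of 20 beginning at or after it, and this was not counted in other genes. For ETS, 23 of the 30 genes with a match (76.7%) had one beginning in the 80 bases before the start. This was so in 56.0% of the RPB1-bound genes with an ETS match. The GC box GGGCGG was found in 59.4%, against 75.1% of the RPB1-bound genes, the CCAAT box CCAAT in 29.0% against 37.2%, and the TATA box TATAAA in 4.35% against 4.69%. The E-box CACGTG was found in 7.25% against 10.5% and the STAT motif TTCNNNGAA in 10.1% against 5.98%. Matches of different motifs shared bases in 2 genes, ETS with STAT in MRPL30 and ETS with the GC box in MRPL53. Such matches are letters in a window and were not tested for binding. In respiratory chain genes ETS was found in 28.8%, YY1 in 24.2% and NRF1 in 30.3% of 66 windows, and in cytosolic ribosomal protein genes in 32.9%, 12.9% and 12.9% of 70.

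**Figure D1:**
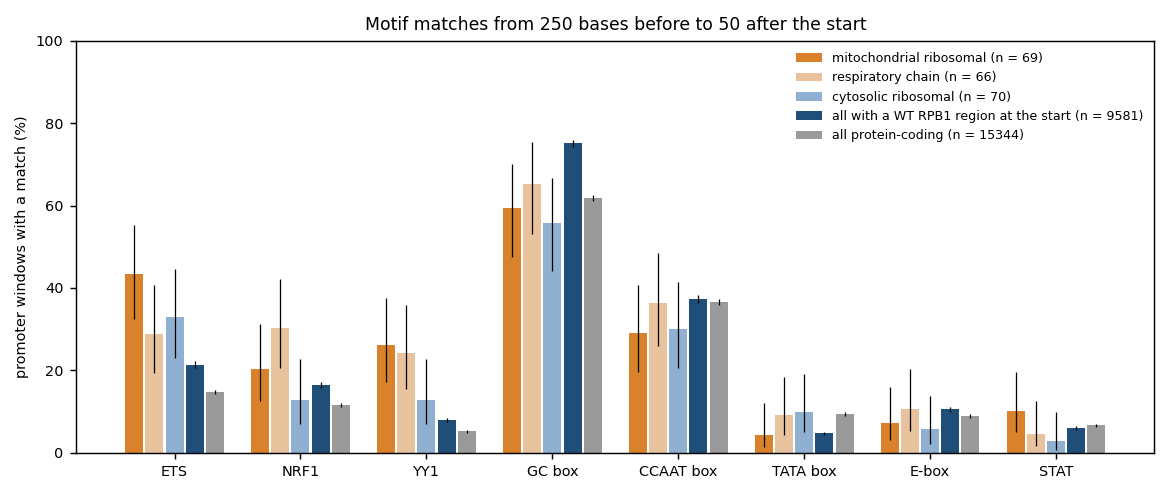
Share of gene start windows (y axis, percent) that hold each motif on either strand (x axis), for the mitochondrial ribosomal protein genes (69), all protein-coding genes (15344), protein-coding genes with a WT RPB1 region at the start (9581), cytosolic ribosomal protein genes (70) and respiratory chain genes (66). Bars are shares and the lines on them 95% Wilson intervals, which cover counting error only. ETS and YY1 stand at 43.5% and 26.1% in the mitochondrial ribosomal protein genes against 21.4% and 7.89% in the RPB1-bound genes.

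Genes were also split by the ETS and NRF1 matches. The median fold enrichment at the start in WT was 26.1 in the 30 genes with an ETS match and 31.0 in the 39 without, and the median KO to WT ratios, relative to all genes, were 0.02 and 0.01 on the log2 scale. For pSer2 the median ratios were -0.17 with (n = 24) and 0.01 without (n = 29). For NRF1 the WT medians were 28.1 with (n = 14) and 28.0 without (n = 55), and the RPB1 ratios 0.03 and -0.01. The RPB1 ratios thus differed by little between these groups.

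Counted by their own symbols, 58 of the 78 genes had an RPB1 promoter region in WT and 63 in KO, 74.4% and 80.8%. Of the 16428 symbols with a region in any list, 74.4% had one in WT and 72.0% in KO. Those symbols all had a region, whereas 4 of the 78 genes had none, and this holds for all shares by symbol below. Over the 74 genes with a region the shares were 78.4% and 85.1%, against 79.4% and 77.3% of protein-coding genes with a region. A promoter region is one that the authors' annotation places within 1 kb of a transcript start. In all, 57 genes had one in both lists, MRPS2 had one in WT only (5.96% of all symbols) and 6 had one in KO only, MRPL27, MRPL32, MRPL49, MRPL57, MRPS12 and MRPS30 (7.69%, against 3.51%). MRPS2 and MRPS12 are homologs of small-subunit proteins of bacteria, MRPS12 at the site where codons are read.

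Presence by symbol did not follow presence at the start. Each of the 7 genes had an RPB1 region within 1 kb of its start in both cell lines, mostly entered under a neighboring gene. At the start of MRPL27 the region of EME1 had a fold enrichment of 33.9 in WT and 25.2 in KO. At that of MRPL57 the region of SKA3 had 71.0 and 40.5. At MRPS12 the region of SARS2, the mitochondrial seryl-tRNA synthetase, had 27.0 and 15.4. The starts of MRPS2 and MRPS30 showed 30.6 in both lines and 15.0 and 15.9. At MRPS30 the region changed its symbol, from MRPS30-DT in WT to MRPS30 in KO. At MRPL27, MRPL32, MRPS12 and MRPS2 the region under the gene's own symbol was a separate, weaker one, of 4.53, 4.22 and 5.47 in KO and 5.01 in WT.

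Therefore the regions were also assigned by position, taking the strongest region within 1 kb on either side of the GENCODE start. By position 77 of 78 genes (98.7%) had an RPB1 region at the start in WT and the same number in KO, against 60.1% and 58.1% of 20007 protein-coding genes. Cytosolic ribosomal protein genes with a region in any list had 96.5% in both lines, and such respiratory chain genes 94.5%. MRPL23, whose bacterial homolog lines the peptide exit tunnel, had no region at its start in any of the 4 lists. The start of MRPL12, whose product also binds mitochondrial RNA polymerase, was covered by a region of SLC25A10, that of MRPL43 by one of TWNK, the mitochondrial DNA helicase, and that of MRPS34 by one of EME2. The regions had the genes' own symbol in 54 of 77 in WT and 55 in KO.

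Starts facing another gene were common among these genes. An opposite-strand start lay within 1 kb for 31 of 78 (39.7%), against 16.4% of protein-coding genes, and the neighbor was protein-coding in 27 and a long noncoding RNA in 4. At 19 of these 31 starts, and at 4 of the 46 others with a region, the WT RPB1 region was entered under another symbol. At a shared start, polymerase on either gene of the pair cannot be told apart in these lists.

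The pSer2 form was called at fewer starts. By symbol 57 genes had a pSer2 promoter region in WT and 56 in KO (73.1% and 71.8%), against 55.1% and 48.8% of all symbols. Over the 74 genes with a region the shares were 77.0% and 75.7%, against 57.6% and 51.7% of protein-coding genes with a region. Of the 78 genes, 52 had a pSer2 promoter region in both lines, 5 in WT only (6.41%, against 11.3%) and 4 in KO only (5.13%, against 4.98%). By position 67 and 66 of 78 starts had a pSer2 region, 85.9% and 84.6%, against 35.7% and 32.4% of protein-coding genes. Cytosolic ribosomal protein genes with a region in any list had 95.3% and 96.5%, and such respiratory chain genes 78.1% and 75.3%. The starts of MRPL11, MRPL19, MRPL23, MRPL47, MRPS10 and MRPS31 had none in either line.

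Among the genes whose pSer2 promoter region was listed in WT only, MRPL3, MRPS11 and MRPS18A had a weak one, of 3.56, 4.16 and 3.56, and no region at the start in KO. MRPL49 and MRPS16 had a region at the start in both lines, of 4.38 and 5.36 (as FAU) and of 3.92 and 6.61. Of those listed in KO only, MRPL34, MRPL42 and MRPL45 had fold enrichments of 5.51, 3.60 and 4.29 and no start region in WT, and MRPL36 had 4.89 in WT (as NDUFS6) and 6.08 in KO. MRPL45 is known as the protein that anchors the ribosome at the inner membrane. The promoter values listed in 1 line only thus ran from 3.23, for MRPL49, to 6.08, around the median of 4.66 in WT.

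**Figure D2:**
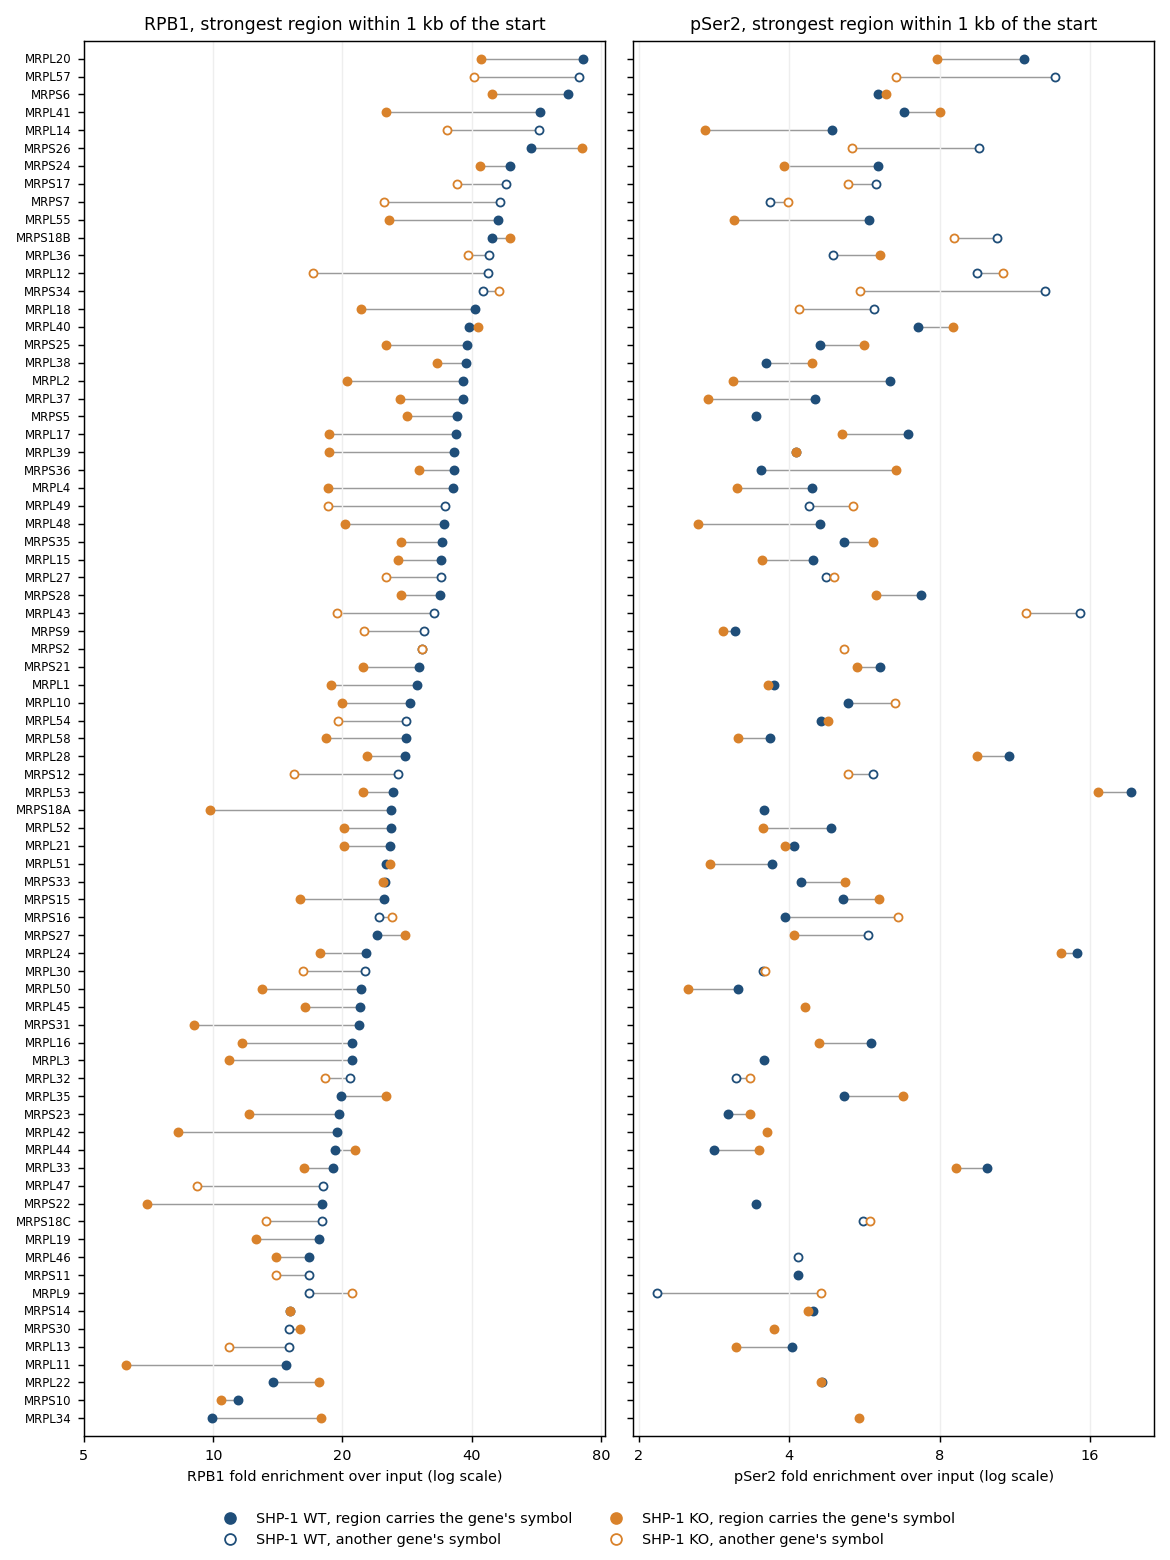
Fold enrichment over input (x axis, log scale) of the strongest region within 1 kb of the start of each gene with one (77 rows), in WT and KO cells, for RPB1 (left) and pSer2 (right). Each point is 1 library, a line joins WT and KO of a gene, filled points are regions with the gene's own symbol and open points regions entered under another gene. RPB1 values run from 9.93 to 72.5 in WT and from 6.28 to 72.2 in KO, and pSer2 values from 2.17 to 19.3 and from 2.51 to 16.6.

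RNA pol II occupancy at the promoters of these genes was close to that of all genes. The strongest RPB1 promoter region of each gene had a median fold enrichment of 27.1 in WT (range 5.01 to 72.5, 58 genes) and 18.8 in KO (4.22 to 72.2, 63 genes), against 26.1 and 19.0 over all genes. For pSer2 the medians were 4.66 in WT (2.83 to 19.3) and 4.23 in KO (2.51 to 16.6), against 4.83 and 4.87. The 2 antibodies were set side by side only, since their fold enrichments are not on 1 scale.

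The highest RPB1 promoter values in WT were those of MRPL20, MRPS6, MRPS27, MRPL41 and MRPS26. MRPL20, a homolog of a bacterial large-subunit protein, had 72.5 in WT and 42.1 in KO, with its WT region at chr1:1404380-1409874 (hg38). MRPS6, of the small subunit, had 66.9 and 44.5. The mitochondria-specific MRPS27, which has RNA-binding pentatricopeptide repeats, had 63.2 and 48.4, but 24.1 and 28.0 within 1 kb of its GENCODE start. These regions were thus strong in both lines, and MRPL41 and MRPS26 are described with the ratios.

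The lowest values in WT were those of MRPS2 (5.01), MRPL13 (7.39), MRPL34 (9.93), MRPS10 (11.4) and MRPL22 (13.8). MRPS2 and MRPL13 had stronger regions at the start under another symbol, of 30.6 and 15.0. The low values of MRPL34, MRPS10 and MRPL22 were those of the start itself.

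In KO cells the RPB1 fold enrichment was lower at most of these promoters, as it was at most promoters. Of the 57 genes with a promoter region in both lists, 49 had a lower value in KO and 8 a higher one. Over all 11250 genes with a region in both, the median KO to WT ratio was 0.727 (-0.46 on the log2 scale), and ratios are given below relative to this median. The centred median of the 57 genes was 0.02 (quartiles -0.32 and 0.23). Past 1.5-fold, 6 genes were lower (10.5%, against 9.29% of all genes) and 6 higher (10.5%, against 10.3%), and 45 lay between. Both shares were near those of all genes. Without centring the split was 23 lower and 1 higher.

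By position the 77 genes had a median of 0.04, with 7 lower (9.09%, against 8.59% of protein-coding genes) and 9 higher (11.7%, against 8.52%). The subunits had like medians, -0.02 for the 38 MRPL and 0.07 for the 19 MRPS genes by symbol. Genes with bacterial counterparts had -0.02 (n = 29) and mitochondria-specific genes 0.05 (n = 28), and genes that share their start 0.02 (n = 15) against 0.00 (n = 42) for the others. None of these groups was set off from the rest by more than the spread among its own genes.

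**Figure D3:**
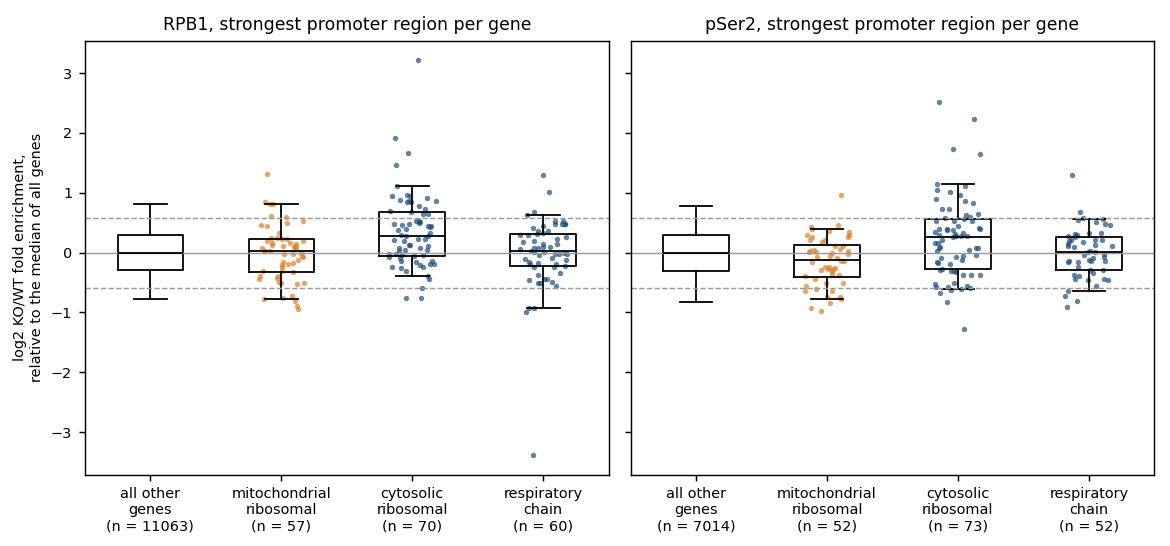
KO to WT ratio of promoter fold enrichment (y axis, log2, relative to the median of all genes) for RPB1 (left) and pSer2 (right), in other genes (11063 and 7014), mitochondrial ribosomal protein genes (57 and 52), cytosolic ribosomal protein genes (70 and 73) and respiratory chain genes (60 and 52). Boxes give quartiles and median, whiskers the 5th to 95th percentiles, points single genes, and dashed lines 1.5-fold. The mitochondrial ribosomal protein genes have medians of 0.02 and -0.12 and the cytosolic ones of 0.27 and 0.26.

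The 6 genes with the lower ratios were MRPS18A, MRPS22, MRPS31, MRPL11, MRPL42 and MRPL41. MRPS18A, 1 of 3 related proteins of the MRPS18 family, had an RPB1 fold enrichment of 26.0 in WT and 9.84 in KO, a centred ratio of -0.94, with its WT region at chr6:43687358-43688151 (hg38). Its pSer2 start region of 3.56 in WT was not listed in KO. MRPS22, whose mutation causes a mitochondrial translation deficiency, had 17.9 and 7.01, a ratio of -0.89. Neither gene had a strong promoter in KO, where MRPS22 was among the lowest.

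MRPS31, a mitochondria-specific small-subunit protein, had 21.8 and 9.02 (-0.81). MRPL11, a homolog of the bacterial protein at the base of the ribosomal stalk, had 14.8 and 6.28 (-0.77). MRPL42 had 19.4 and 8.27 (-0.77). MRPL41 was the only 1 of the 6 with a high WT value, with 57.6 and 25.3 (-0.73). MRPS22, MRPS31, MRPL41 and MRPL42 are mitochondria-specific. By position MRPL12, of the stalk itself, was also lower, with 43.7 in WT and 17.1 in KO (-0.88) in the region it shares with SLC25A10.

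The 6 genes with the higher ratios were MRPL34, MRPS26, MRPL22, MRPL35, MRPL44 and MRPS18B. MRPL34, a small basic protein of the large subunit, had 9.93 in WT and 17.8 in KO, a centred ratio of 1.31. It was weak in RPB1 in WT, with its region at chr19:17305408-17306818 (hg38), and had a pSer2 region of 5.51 in KO only. MRPS26 had 55.0 and 72.2 (0.85), the highest KO value of these genes, with a region at chr20:3045217-3047281 in WT. The regions under MRPS26 and MRPS18B were the strong ones among these 6 in both lines.

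MRPL22, a homolog of a protein that lines the bacterial exit tunnel, had 13.8 and 17.6 (0.82). MRPL35 had 19.8 and 25.2 (0.81), and MRPL44, which has a ribonuclease III-like fold, 19.2 and 21.4 (0.62). MRPS18B had 44.6 and 49.1 (0.60), from 1 region of 10315 bp in WT and 10543 bp in KO. It overlaps the pSer2 region entered under PPP1R10, so its value cannot be credited to MRPS18B alone. For pSer2, MRPS18B was among the lower genes by symbol, as given below. In the MRPS18 family the RPB1 ratio was thus lower for MRPS18A and higher for the wide region under MRPS18B. It was 0.05 by position for MRPS18C, whose start lay in a region of HELQ with 17.9 and 13.3. By position MRPL9, MRPS27 and MRPS34 were also past 1.5-fold higher, with 0.81, 0.69 and 0.61. Of these, MRPL9 was read from a region of OAZ3 and MRPS34 from one of EME2, with 42.4 in WT and 46.4 in KO.

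The ratio moved with the strength of the region, which bears on the weak genes. Over the 2250 genes with the weakest WT RPB1 promoters the centred median was 0.29, and over the 2250 with the strongest it was -0.07. Of the 57 genes, 4 were among the weakest (median 0.58) and 7 among the strongest (-0.13). With each gene set against genes of like WT strength, a comparison chosen after seeing the data, the median of the 57 was 0.04 and again 6 were lower and 6 higher.

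The pSer2 ratios leaned to the lower side. Over all 7191 genes with a pSer2 promoter region in both lists the median KO to WT ratio was 0.958 (-0.06 on the log2 scale). The 52 mitochondrial ribosomal protein genes had a centred median of -0.12 (quartiles -0.40 and 0.13). Past 1.5-fold, 9 were lower (17.3%, against 11.0% of all genes) and 1 was higher (1.92%, against 10.4%), and 42 lay between. Against genes of like WT strength 7 were lower and 1 higher. Of the 9, 5 share their start with an opposite-strand gene, out of 19 such genes (26.3%). The other 4 were among the 33 genes without a shared start (12.1%). By position the lean was smaller, with a median of -0.07 over 61 genes, 8 lower (13.1%, against 12.9%) and 3 higher (4.92%, against 12.1%).

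By subunit, the 34 MRPL genes had a centred pSer2 median of -0.20, with 6 lower and 0 higher, and the 18 MRPS genes of 0.03, with 3 lower and 1 higher. Genes with bacterial counterparts had -0.25 (n = 28) and mitochondria-specific genes 0.09 (n = 24). By position these medians were -0.02 (n = 34) and -0.17 (n = 27), so the order of the 2 classes turned with the way regions were assigned, while the subunits kept theirs at -0.16 (n = 40) and 0.01 (n = 21). The spread within each group was wider than these differences.

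The 9 lower genes were MRPL2, MRPS15, MRPL55, MRPL14, MRPL48, MRPS18B, MRPL18, MRPL30 and MRPS22. MRPL2, homolog of a bacterial protein next to the peptidyl transferase center, had a pSer2 fold enrichment of 6.35 in WT and 3.09 in KO, a centred ratio of -0.98, with the WT region at chr6:43059219-43059506 (hg38). MRPL55 had 5.78 and 3.10 (-0.84). MRPL14, homolog of a bacterial protein on the face toward the small subunit, had 4.87 and 2.71 (-0.78), and MRPL48 had 4.60 and 2.63 (-0.75). For these 4 genes the region at the start by position was the same one.

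The others depended on which region was taken. For 12 of the 52 genes, MRPS15, MRPS22 and MRPL58 among them, the strongest pSer2 promoter regions of the lines did not overlap, whereas for RPB1 this was so in 0 of 57. The share over all genes was not counted, so whether 12 of 52 is unusual cannot be told. MRPS15 had 12.0 and 6.05 (-0.93) by symbol, but 5.12 and 6.05 within 1 kb of its start. MRPS18B had 6.27 and 3.58, but 10.4 and 8.56 by position, under PPP1R10. MRPL18, MRPL30 and MRPS22 had ratios of -0.64, -0.64 and -0.62, and by position those of MRPL18 and MRPL30 were -0.46 and 0.05, while MRPS22 had a start region in WT only.

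MRPS36 was the 1 gene past 1.5-fold higher, with 3.51 in WT and 6.53 in KO (0.96). Its product, named after ribosomal preparations, is also known as a component of the 2-oxoglutarate dehydrogenase complex. The next highest ratios were those of MRPL35 with 5.15 and 6.77 (0.46), MRPL58, a peptidyl-tRNA hydrolase that rescues stalled ribosomes, with 3.65 and 4.71 (0.43), MRPS27 with 8.18 and 10.2 (0.39) and MRPL44 with 2.83 and 3.47 (0.36). MRPL35 and MRPL44 were among the higher genes for RPB1 as well. By position, MRPL9 (2.17 and 4.63 as OAZ3, 1.14) and MRPS16 (3.92 and 6.61, 0.80) were also higher. MRPL57 (13.6 and 6.53 as SKA3, -1.02) and MRPS26 (9.57 and 5.34 as GNRH2) were lower. MRPS16 and MRPS34 (13.0 and 5.55) were read from regions that did not overlap between the lines, and their values are no change of 1 region.

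Regions called in WT cells were mostly found again in KO cells. Of the 78 RPB1 promoter regions of these genes in WT, 71 (91.0%, Wilson interval 82.6 to 95.6) were overlapped by at least 1 base of a KO region, against 76.5% of all promoter regions. For pSer2 it was 74 of 97 (76.3%, 66.9 to 83.6), against 62.1%. In the other direction, 85 of 98 KO RPB1 regions (86.7%) and 78 of 95 KO pSer2 regions (82.1%) were overlapped in WT, against 86.8% and 77.0%. Regions of 1 gene are not independent, and the intervals cover counting error only.

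Along the gene, pSer2 was listed most often at the start and past the end. The 70 genes of at least 2 kb with an RPB1 region at the start were followed, and their RPB1 there was thus given by the choice. In the first of 20 equal parts of the gene all had RPB1. In the next part the share was 62.9% in WT and 64.3% in KO, against 37.6% and 34.6% of 11807 protein-coding genes chosen alike. Gene length was not matched between the sets. A start region spans more parts in a short gene, so these shares do not tell how far polymerase reached. From 1 to 1.5 kb past the gene end 41.4% had RPB1 in WT and 45.7% in KO, against 27.0% and 25.1%. For pSer2 the shares just before the start were 82.9% and 78.6%, against 51.2% and 46.6%, and from 1 to 1.5 kb past the end 72.9% and 77.1%, against 56.9% and 50.0%.

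**Figure D4:**
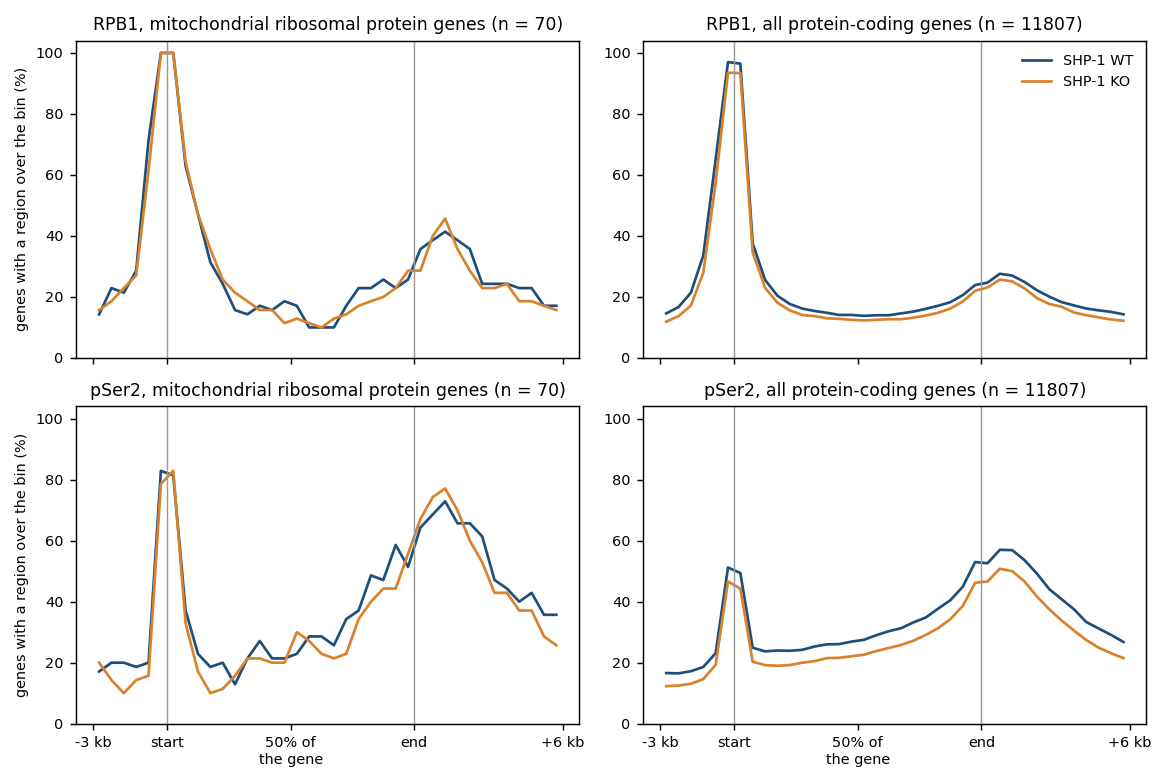
Share of genes with a region (y axis, percent) along the gene, from 3 kb before the start to 6 kb past the end in bins of 0.5 kb, with the gene itself in 20 equal bins (x axis), for RPB1 and pSer2 in WT and KO. Each panel has a line for WT and a line for KO, for the 70 mitochondrial ribosomal protein genes (left) or the 11807 protein-coding genes (right) of at least 2 kb with an RPB1 region at the start. The pSer2 line of the 70 genes reaches 72.9% in WT and 77.1% in KO past the gene end.

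At the gene end the same order held. Among genes of at least 3 kb with an RPB1 start region, 46 of 64 (71.9%, Wilson interval 59.9 to 81.4) had a pSer2 region within 1 kb of the end in WT and 49 (76.6%, 64.9 to 85.3) in KO, against 63.6% and 57.8% of 11455 genes. Of these, 43 had one in both lines. MRPL9, MRPL14 and MRPS30 had one in WT only and MRPL3, MRPL32, MRPS23, MRPS28, MRPS35 and MRPS36 in KO only. Ends with a region in 1 line only were not counted among the 11455 genes. RPB1 itself was called there in 25 (39.1%) and 26 (40.6%), against 32.4% and 30.6%. The cytosolic ribosomal protein genes had pSer2 at the end in 66 of 66 in both lines, and the respiratory chain genes in 85.2% and 80.3% of 61.

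Body regions made up a smaller share here than in the whole lists, but the genes were not matched for length. Regions annotated as exon, intron or UTR made up 33.7% and 31.7% of those of these genes for RPB1 in WT and KO, and 49.7% and 45.1% for pSer2, against 40.4%, 39.4%, 64.0% and 63.4% of the whole lists. By symbol, 28 genes (35.9%) had an RPB1 body region in WT and 30 (38.5%) in KO, against 39.1% and 35.5% of all symbols. For pSer2 it was 42 (53.8%) and 45 (57.7%), against 57.3% and 49.5%. Over the 74 genes with a region the shares were 37.8% and 40.5% for RPB1 and 56.8% and 60.8% for pSer2. Protein-coding genes with a region had 41.6% and 38.1% for RPB1 and 61.7% and 53.7% for pSer2. The symbol is an uncertain guide here, since the summit lay inside the assigned gene in only 44.3%, 50.0%, 52.9% and 51.0% of the body regions in WT RPB1, KO RPB1, WT pSer2 and KO pSer2. By position, from 1 kb past the start to the gene end, 57 of the 78 genes (73.1%) had pSer2 in WT and 52 (66.7%) in KO. Protein-coding genes had 47.5% and 41.8%, but these include genes without any region. Of the 78, 8 had pSer2 there in WT only and 3 in KO only. For pSer2 the order of the lines was thus the reverse of that by symbol. RPB1 was found there in 40 and 44 of the 78, against 7872 and 7206 of 20007 protein-coding genes.

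The length of body covered under the symbol differed little on balance. Over all genes the median KO to WT ratio was 0.850 for RPB1 and 0.801 for pSer2. Relative to it, the 19 genes with RPB1 body regions in both lists had a median of 0.16 on the log2 scale, with 3 shorter in KO past 1.5-fold (15.8%, against 27.2% of all genes) and 6 longer (31.6%, against 24.4%). The 38 genes with pSer2 body regions had a median of 0.11, with 8 shorter (21.1%, against 26.5%) and 12 longer (31.6%, against 19.3%). Without centring the pSer2 split was 10 shorter and 5 longer and that for RPB1 4 and 5.

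Counting instead the bases of the gene itself, from 1 kb past the start to the end, gave a different split for pSer2. Over 49 genes the median was 0.03, with 12 shorter (24.5%, against 24.6% of protein-coding genes) and 4 longer (8.16%, against 12.6%). For RPB1, over 35 genes, it was 0.11, with 5 shorter (14.3%, against 24.7%) and 11 longer (31.4%, against 18.9%). The share of longer genes was thus above that of all genes in both counts for RPB1, and in the count by symbol alone for pSer2.

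**Figure D5:**
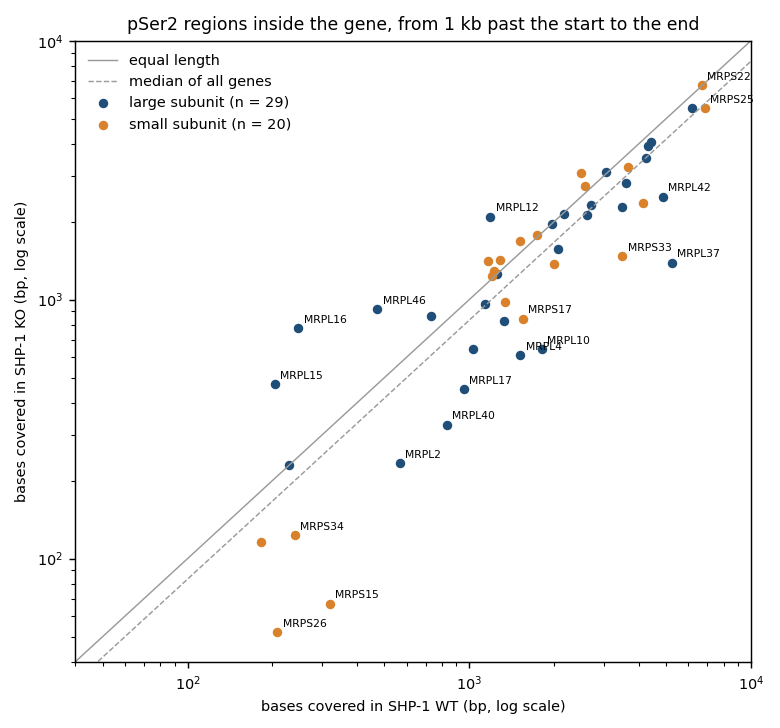
Bases covered by pSer2 regions inside the gene, from 1 kb past the start to the end, in WT (x axis) and KO (y axis, both log scales), for the 49 genes with covered bases in both lines, 29 MRPL and 20 MRPS. Each point is 1 gene, the solid diagonal marks equal lengths and the dashed line the median ratio of all genes, 0.833. MRPL37 lies farthest below in bases, with 5226 in WT and 1388 in KO, and MRPS22 and MRPS25 have the longest covered lengths in WT.

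The longest pSer2 bodies inside the gene were those of MRPS25 and MRPS22. MRPS25, a mitochondria-specific small-subunit protein, had 6867 bases covered in WT and 5487 in KO within the gene, and 11901 and 7464 under its symbol. MRPS22 had 6680 and 6743 bases within the gene, although its RPB1 promoter value in KO was among the lowest of these genes. MRPL33, MRPL30, MRPS18A and MRPL42 followed by symbol, with 7191 and 5731, 7049 and 5374, 5318 and 5705, and 4866 and 2617 bases. For MRPL33, MRPL30 and MRPS18A no length within the gene is given, and regions under a symbol can lie in other genes. Relative to the median of all genes, the lengths by symbol were -0.35 for MRPS25, -0.01 for MRPL33, -0.07 for MRPL30, 0.42 for MRPS18A and -0.57 for MRPL42 on the log2 scale, so that MRPL33 and MRPL30 lay at the median.

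MRPL37, a mitochondria-specific large-subunit protein, had 4421 bases in WT and 1577 in KO under its symbol and 5226 and 1388 within the gene (-1.65 relative to all genes). MRPL17, a homolog of a bacterial large-subunit protein, had 2382 and 697 under its symbol and 957 and 452 within the gene (-0.82). MRPL42 had 4866 and 2495 within the gene (-0.70), and MRPS27 had 3052 and 1066 under its symbol against 4145 and 2359 within. These 4 genes had fewer pSer2 bases in KO by both counts.

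The gains by symbol were less steady. MRPL27, MRPL44, MRPL20 and MRPS36 had 0 bases in WT and 2320, 2191, 1458 and 1319 in KO under their symbols. Within the gene MRPL27 had 732 and 868, MRPL20 4308 and 3931, and MRPL44 and MRPS36 0 in WT and 459 and 1799 in KO. MRPS30 had 1229 and 3331 by symbol but 522 and 0 within the gene. MRPS36 was thus the gene with more pSer2 in KO at its start, inside it and at its end.

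Among genes with pSer2 bases within the gene in both lines, the 4 longer in KO past 1.5-fold of the median were MRPL12 (1186 and 2093), MRPL15 (204 and 472), MRPL16 (247 and 775) and MRPL46 (471 and 918). In MRPL15, MRPL16 and MRPL46 fewer than 1000 bases were covered in either line. For RPB1, MRPS7 had 420 and 1273 bases, MRPL50 813 and 1759 and MRPS22 493 and 903, and MRPL45 had 1261 and 237.

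Other genes of mitochondrial translation, and 4 of mitochondrial transcription, were read from 5 lists of 51 genes in all. All 51 had an RPB1 region at the start in both lines, and 39 had a pSer2 region there in WT and 36 in KO. Of the 41 with an RPB1 promoter region in both, the centred median was 0.16. MTG1, a GTPase of ribosome assembly, and LARS2, the leucyl-tRNA synthetase, were past 1.5-fold lower, and 5 were higher. These were the initiation factor MTIF3, the elongation factor TUFM, the rRNA methyltransferase NSUN4 and the synthetases EARS2 and YARS2. Among all genes with an RPB1 promoter region in both lists, 9.29% were lower and 10.3% higher. TUFM was higher only by its symbol, with 3.88 in WT and 4.89 in KO (0.80), since the region at its start had 29.0 and 17.2 (-0.28). The other 6 genes had nearly the same ratios by position. The 9 translation factors had a median of 0.31 over 8 genes and the 17 synthetases of 0.17 over 15.

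For pSer2, the 35 genes with a region in both had a median of 0.05, with MTG1 lower and MRRF, a ribosome recycling factor, and SLIRP, an RNA-binding protein, higher. Among all genes with a pSer2 promoter region in both lists, 11.0% were lower and 10.4% higher. The 5 mitoribosome proteins named otherwise had centred medians of -0.17 for RPB1 (n = 3) and -0.28 for pSer2 (n = 4). DAP3, of the small subunit, had an RPB1 fold enrichment of 42.3 in WT and 19.7 in KO at its start, AURKAIP1 37.8 and 25.3, CHCHD1 30.4 and 19.7 and GADD45GIP1 74.0 and 42.4. All 4 were lower in KO before centring, as were 9540 of 11250 genes by their promoters.

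The cytosolic ribosomal protein genes, the nearest kin in function, had other values in the same lists. Their centred RPB1 median was 0.27 over 70 genes, with 3 lower and 20 higher past 1.5-fold (28.6%), against 0.02 with 6 and 6 of 57 in the mitochondrial set. For pSer2 it was 0.26 over 73 genes, with 6 lower and 17 higher (23.3%), against -0.12 with 9 and 1 of 52. The respiratory chain genes had 0.02 over 60 genes with 4 lower and 4 higher for RPB1, and 0.01 over 52 genes with 4 and 2 for pSer2. Of all genes, 10.3% were higher for RPB1 and 10.4% for pSer2. By position the cytosolic genes had a median of 0.14 for RPB1, with 3 lower and 8 higher of 82 (9.76%, against 8.52% of protein-coding genes), so that their share of higher genes was then near the background. For pSer2 they had 0.15, with 9 lower and 20 higher of 81 (24.7%, against 12.1%). The mitochondrial medians by position were 0.04 and -0.07. With 1 library per line, whether these sets differ beyond the spread between libraries was not tested.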

How the data were processed

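RPB1, pSer2 and input DNA were profiled by ChIP-seq in WT and SHP-1-KO HepG2 cells. Per the labels and the study's methods, reads were trimmed with Trimmomatic, aligned to hg38 (GRCh38) with BWA and peaks called with MACS2 against input in the MUGQIC pipeline, with versions not given in the sources used here. The deposited lists hold, per region, the fold enrichment over input (a ratio) and −log10 p and q values (smallest −log10 q 1.31), with the authors' nearest gene and class. They hold no counts, so depth is unknown. A deposited table of the authors' own RPB1 comparison (per-region p, adjusted p and numbers of windows up or down) was not used. The 2 input libraries were not analysed here.

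Computed here were, per gene, the strongest promoter region by symbol, the strongest region within 1000 bp of the GENCODE 44 start, covered body length, overlaps and motif matches. KO to WT ratios were centred on the median of all genes and called past 1.5-fold. Shares have 95% Wilson intervals (counting error only). Python 3.11.15, pandas 2.3.3, NumPy 2.4.6, SciPy 1.17.1 and matplotlib 3.10.9 were used, and the steps were tested on simulated data. With 1 library per condition no test was run.

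Genes named were those with no region, those with a promoter region in 1 list of an antibody, the 5 highest and 5 lowest WT RPB1 promoters, the 5 largest and 5 smallest ratios per antibody, the 5 longest WT pSer2 bodies, the 5 largest losses and gains of length, the MRPS18 family, MRPL12 and the genes of arm 1p (MRPL20, MRPL37, MRPS15). Others were named after their values were seen, where a count of few genes called for it. The genes and lists were chosen with earlier results of these data known. The alternatives were another way of taking or centring the ratio, a −log10 q of at least 5, a 2-fold limit, a reciprocal overlap of 50%, downstream regions counted as body, and leaving out arm 1p.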

Additional observations from a re-analysis of the deposited data

How the results depend on the processing

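No paired analysis was possible because there was 1 library per antibody and cell line, and for the same reason no replicate could be left out. Of 120 values under other settings, 92 stayed close to those reported (counts within 1.5 times, medians within 0.1 on the log2 scale, shares within their interval), and 28 moved, among them medians near 0 that crossed it. Taking promoters within 1 kb only changed nothing, since that is the authors' only promoter class. The bases covered inside the gene itself, the ratio centred within classes of WT strength and the set without shared starts were chosen after seeing the data.

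Not centring gave an RPB1 promoter median of -0.44 with 23 genes lower and 1 higher, body medians of -0.07 for RPB1 and -0.21 for pSer2, and 5 longer pSer2 bodies. The mean over promoter regions gave an RPB1 median of -0.22 with 13 lower. A 2-fold limit left 0 lower and 1 higher for RPB1, 0 and 0 for pSer2, 1 shorter RPB1 body, and 5 shorter and 3 longer pSer2 bodies. By position 3 genes were higher for pSer2, and without shared starts 4 were lower. A −log10 q of at least 5 left 15 genes with a WT RPB1 body region, body medians of 0.37 for RPB1 and -0.01 for pSer2, and 7 longer pSer2 bodies. Downstream regions counted as body gave 6 shorter for RPB1 and 5 for pSer2. Bases of the gene itself gave 5 shorter and 11 longer for RPB1 and 4 longer for pSer2. A reciprocal overlap of 50% lowered the shared promoter regions to 82.1% for RPB1 and 49.5% for pSer2. Apart from the settings whose own construction sets the value (no centring, a wider fold limit, fewer genes), the cause was not tested. The lists hold no counts, so what depth limits could not be set.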

Other observations

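The promoter regions of the mitochondrial ribosomal protein genes had a median width of 1360 bp in WT and 1170 bp in KO for RPB1, against 1298 and 1147 bp over all genes. For pSer2 the median width was 475 bp in WT and 361 bp in KO, against 484 and 463 bp. The genes on chromosome arm 1p were MRPL20, MRPL37 and MRPS15. Beside MRPL20, MRPL37 had an RPB1 promoter fold enrichment of 38.2 in WT and 27.3 in KO (-0.02 relative to all genes) and MRPS15 of 25.0 and 15.9 (-0.19). The highest pSer2 promoter values in WT beside MRPS15 and MRPL20 were those of MRPL53 with 19.3 (16.6 in KO), MRPL24 with 15.1 (14.0), MRPL28 with 11.0 (9.48) and MRPL33 with 9.94 (8.62), which were also high in KO.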
